A study of Homo sapiens with 20 samples.

Results

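The RUNX genes, RUNX1, RUNX2 and RUNX3, were examined as anchors of chromatin loops in GBM cells before and after correction of a STAG2 mutation. Each list of Hi-C loops was searched for anchor pairs in which at least 1 of the 5-kb anchors lay within 3 kb of an annotated hg19 start site of a RUNX gene. Over the 4 cell lines 344 of 572000 distinct anchor pairs met this rule, of which 243 were at RUNX1, 94 at RUNX2 and 7 at RUNX3. They made up 131 of the 300000 pairs listed in H4 and 108 of 300000 in H4 88-1, and 233 of 300000 in 42MGBA against 216 of 300000 in 42MGBA 53-1.

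The parental lines H4 and 42MGBA, both grown from human GBM, each carry their own endogenous truncating mutation of STAG2, which encodes a cohesin subunit (genotype STAG2-mutant). Gene editing restored the wild-type allele in an isogenic derivative of each, H4 88-1 from H4 and 42MGBA 53-1 from 42MGBA (genotype STAG2-WT, called STAG2-corrected here). Each corrected genotype is thus represented by a single derived line. Hi-C joins and sequences pieces of chromatin that were close together in the nucleus. For each cell line 2 replicates were pooled by the authors into 1 list of the 300000 strongest anchor pairs, each with a signal value called loop strength, from which read counts cannot be recovered. The depth behind each value is therefore unknown here, the replicates give no spread, and every difference below describes these libraries without a replicate check or a p-value.

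RUNX proteins are transcription factors that bind DNA through a Runt domain, together with the shared partner CBFB, and either activate or repress their targets. RUNX1 is best known for blood cell formation, RUNX2 for bone formation, and RUNX3 for T cells and neurons. Each gene is transcribed from a distal promoter, P1, and a proximal promoter, P2, which give proteins with different first residues and which were kept apart here.

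The promoter sequences are shown first, because P1 and P2 of each gene differed in base composition. In hg19, RUNX1 lies on the minus strand of chromosome 21, with P1 start sites at 36421567 to 36421641 and P2 start sites at 36259480 to 36262087. RUNX2 lies on the plus strand of chromosome 6, with P1 at 45295894 to 45296464 and P2 at 45389773 to 45390314. RUNX3 lies on the minus strand of chromosome 1, with P1 at 25291501 to 25291612 and P2 at 25255289 to 25256767. The 250 bases before the P1 start at chr21:36421642-36421891 and before the P2 start at chr21:36260988-36261237, both free of annotated exons, are given here from GRCh37 on the strand of RUNX1, with each CpG in capitals.
RUNX1 P1: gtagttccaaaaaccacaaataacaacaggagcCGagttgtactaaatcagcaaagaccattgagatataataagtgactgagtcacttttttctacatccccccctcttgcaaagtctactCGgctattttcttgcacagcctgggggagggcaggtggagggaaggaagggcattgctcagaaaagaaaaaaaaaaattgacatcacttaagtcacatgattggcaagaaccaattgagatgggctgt
RUNX1 P2: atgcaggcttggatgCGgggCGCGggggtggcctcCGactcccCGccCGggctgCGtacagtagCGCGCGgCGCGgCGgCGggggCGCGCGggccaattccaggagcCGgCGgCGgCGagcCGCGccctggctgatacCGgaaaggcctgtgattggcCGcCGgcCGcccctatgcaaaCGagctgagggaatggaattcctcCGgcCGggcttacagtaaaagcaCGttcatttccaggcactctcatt
The P1 window held 2 CpG and 42.8% GC, whereas the P2 window held 31 CpG and 69.2% GC. P2 also held more CpG and more GC than P1 in the other RUNX genes. The GC share was 40.8% at P1 and 64.4% at P2 of RUNX2. At RUNX3 it was 67.6% and 78.4%, so that RUNX3 P1 was not low in GC against a gene median of 61.2%. RUNX2 had 0 CpG at P1 and 17 at P2, and RUNX3 had 13 at P1 and 33 at P2. Over 19798 protein-coding genes the median was 15 CpG in such a window.

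The core of the RUNX binding motif is ACCACA, or TGTGGT on the other strand. It was found in the 250 bases before the P1 start site used in all 3 genes, and before the P2 start site in none. At least 1 core was found in 9.58% of the promoters of the 19798 genes, and at least 2 in 0.732%. Windows of 30 bases around the cores are printed on the strand of each gene, with the core in capitals, from chr21:36421862-36421891, chr6:45295864-45295893, chr6:45295968-45295997 and chr1:25291611-25291640.
RUNX1 P1: gtagttccaaaaACCACAaataacaacagg
RUNX2 P1, first core: aggaaaggccttACCACAagccttttgtga
RUNX2 P1, second core: gtgaggtcacaaACCACAtgattctgcctc
RUNX3 P1, both cores: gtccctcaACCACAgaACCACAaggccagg
RUNX3 P1 carried its 2 cores side by side. Those of RUNX2 P1 lay 178 and 74 bases before the start site used, 45296054. That window overlaps an exon of RUNX2 transcripts with an earlier start, and its second core lies after the first annotated P1 start, 45295894. The windows of RUNX3 P1 and RUNX2 P2 also overlap exons of their own genes. A match in these letters is a description and shows no binding.

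Listed loops were more numerous at the proximal than at the distal promoter of RUNX1 and RUNX2 in every line. RUNX1 P2 was an anchor of 57 listed pairs in H4 and 40 in H4 88-1, and 145 in 42MGBA against 158 in 42MGBA 53-1. RUNX1 P1 was an anchor of 12, 18, 28 and 22 pairs in the same order of cell lines. RUNX1 P2 thus had more listed pairs than P1 in every line, and both had more in the 42MGBA system than in the H4 system. RUNX2 P2 had 46, 42, 46 and 37 listed pairs, a narrow range across the 4 lines. RUNX2 P1 had 14 in H4 and 1 in H4 88-1, and 4 in 42MGBA against 1 in 42MGBA 53-1, and none of its pairs was among the 100000 strongest of any line. RUNX3 P2 had 7 pairs in H4 88-1 and 0 in the other 3 lines, and RUNX3 P1 had 0 in all 4.

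**Figure D1:**
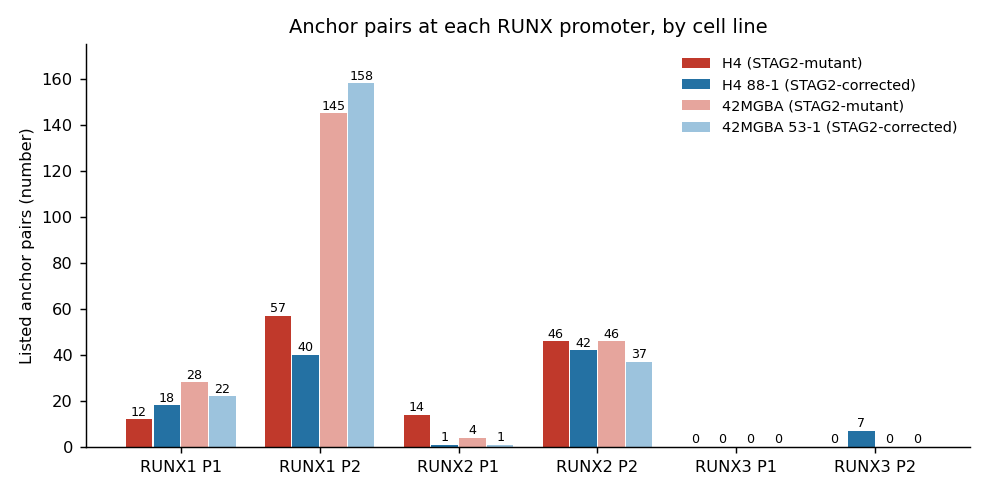
Number of listed anchor pairs (y axis) with an anchor within 3 kb of each RUNX promoter (x axis) in the 4 cell lines, 1 bar per line and no error bar because each line has 1 pooled list. RUNX1 P2 reached 158 pairs in 42MGBA 53-1, whereas RUNX3 P1 had 0 in all lines.

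Among 20163 protein-coding genes, of which between 6835 and 7507 had any listed pair in a given line, RUNX1 stood near the top. Counting all its start sites, RUNX1 had 70 pairs in H4 and 57 in H4 88-1, and 183 in 42MGBA against 178 in 42MGBA 53-1, against a median of 12 among genes with a pair in each line. Only 77 genes had more pairs than RUNX1 in 42MGBA and 82 in 42MGBA 53-1, compared with 501 in H4 and 769 in H4 88-1. RUNX2 had 61, 44, 50 and 38 pairs, and between 636 and 1252 genes had more. The genes nearest to RUNX1 in their counts over the 4 lines, by Euclidean distance of log2(count + 1) and at least 2 Mb away, were CHN1 (64, 69, 191 and 180 pairs), LAMA4 and MYSM1, at distances of 0.31, 0.31 and 0.46. Those nearest to RUNX2 were ACSBG1, CNNM2 and PIGT, at 0.22, 0.24 and 0.29. RUNX3 shared its counts of 0, 7, 0 and 0 with 16 genes, among them BGN, ZNF648 and METTL16.

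At RUNX1 P2 the strongest contact in 3 of the 4 lines joined the promoter anchor chr21:36261200-36265967 to chr21:36771677-36776668, which lies 511 kb upstream, in an intron of the longest annotated RUNX1 transcripts. The summit reached a loop strength of 11.9 in H4 and 11.8 in H4 88-1, and 16.4 in 42MGBA against 7.84 in 42MGBA 53-1. The value in 42MGBA was thus 2.09-fold that in 42MGBA 53-1, whereas the H4 lines differed by 1.01-fold. In 42MGBA this pair ranked 1332 of 300000. Within 25 kb of this summit 19 RUNX1 P2 pairs were listed in both 42MGBA lines, and 19 of 19 were weaker in 42MGBA 53-1. Over chromosome 21, 76.4% of pairs of 400 to 800 kb were stronger in 42MGBA. Summits were chosen by the highest value of any line, here that of 42MGBA, and the 19 pairs adjoin each other.

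In the H4 pair the 2 summit values were close to each other, and the pairs around them went both ways. Of 13 pairs within 25 kb listed in both H4 lines 8 were weaker in H4 88-1, with a median log2 ratio of -0.05. From the promoter anchor chr21:36256327-36261199 the contact 515 kb upstream was stronger in H4 88-1, at 10.7 against 9.54. On the promoter side, the anchors 496 kb and 501 kb upstream reached 7.78 and 9.13 in H4 but 4.59 and 5.99 in H4 88-1, so that H4 exceeded H4 88-1 by 1.70-fold and 1.52-fold. The same 2 pairs reached 9.69 and 11.7 in 42MGBA but 5.52 and 6.24 in 42MGBA 53-1. Both were weaker in the corrected line of each system. Within 25 kb of the summit 21 pairs were listed in H4 and 13 in H4 88-1. The list of H4 goes down to 4.14 and that of H4 88-1 to 4.44, so that H4 lists weaker pairs. Over the genome 386725 pairs were listed in either H4 line, of which each line listed 300000.

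The anchor 511 kb upstream of RUNX1 P2 held a match to the core of the CTCF motif, spelled CC, any 3 bases, AGG, any base and GGC, which was searched on both strands because CTCF, a DNA-binding protein, is known to stop cohesin at loop anchors. The match is on the minus strand at chr21:36772914-36772943. The summit anchor 141 kb downstream held another, also on the minus strand, at chr21:36118063-36118092, and the anchor next to the summit 1047 kb upstream held another on the plus strand, at chr21:37310155-37310184. Each is printed on its own strand with the core in capitals.
511 kb upstream: taaggaaggCCAATAGGTGGCagagcaatc
141 kb downstream: cagagaagcCCCCTAGGAGGCagcctgtca
Next to 1047 kb upstream: gacaagttcCCCCAAGGTGGCatggtatgt
Of the 30 distinct summit anchors of the RUNX promoters 5 held such a match, against 14.4% of the 128561 anchors in the lists, a share close to that of all anchors, and of the 12 promoter anchors 1 did. That anchor, chr6:45385418-45390330 at RUNX2 P2, held 2 matches on the minus strand, and none of the RUNX1 promoter anchors held one. These letters were chosen after the loops had been seen, and a match shows no binding.

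The contacts of RUNX1 P2 formed a series of separate summits, each defined as the other anchor with the highest strength within 25 kb. The summit 141 kb downstream, at chr21:36115619-36120621, overlaps an exon of the long non-coding RNA gene LINC01426, and H4 listed it at 4.50 and H4 88-1 at 6.32, a 1.40-fold higher value, whereas 42MGBA 53-1 listed it at 7.53 and 42MGBA at 6.71. The STAG2-corrected line had the higher value in both systems. The summit 159 kb upstream is RUNX1 P1 itself. The P1 to P2 loop was listed at 5.24 in H4 and 7.51 in H4 88-1, and 9.03 in 42MGBA against 8.23 in 42MGBA 53-1, a 1.43-fold higher value in H4 88-1 than in H4 and a 1.10-fold higher value in 42MGBA than in 42MGBA 53-1. All 4 anchor pairs that join the RUNX1 promoters were listed in all 4 lines, whereas no listed pair joined the promoters of RUNX2, 93.9 kb apart, or of RUNX3, 35.5 kb apart.

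Farther upstream, some RUNX1 P2 summits were listed in all 4 lines and others in fewer. The summit 363 kb upstream was listed at 4.60 in H4 and 4.98 in H4 88-1, and 6.99 in 42MGBA against 6.50 in 42MGBA 53-1. The summit 260 kb upstream, at chr21:36521377-36526179, was listed in 42MGBA 53-1, at 6.34, and in no other line. All 17 pairs within 25 kb of it were likewise listed in 42MGBA 53-1 alone. They adjoin each other, cover the same contact and go down to 4.30, near the lowest strength of that list, 4.28. Over the genome 395862 pairs were listed in either 42MGBA line, of which each line listed 300000. The summit 619 kb upstream was listed at 5.99 in H4 and 5.42 in H4 88-1, and 7.58 in 42MGBA against 4.88 in 42MGBA 53-1, and was weaker in both corrected lines.

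The 2 farthest RUNX1 P2 summits were listed in both 42MGBA lines and absent from H4 88-1. At 947 kb upstream, chr21:37208379-37213317, H4 listed a strength of 5.42, 42MGBA 9.27 and 42MGBA 53-1 6.19. At 1047 kb upstream, the pair of chr21:36256327-36261199 with chr21:37303768-37308584 had a strength of 10.2 in 42MGBA and 7.55 in 42MGBA 53-1 and was absent from both H4 lines, although H4 listed the pair of the adjoining promoter anchor at 4.35. The lowest strength listed in H4 88-1 was 4.44, so that H4 exceeded H4 88-1 by at least 1.22-fold at 947 kb. In the 42MGBA pair the contact at 1047 kb was 1.35-fold stronger in 42MGBA. Within 25 kb of these summits, 9 of 9 and 7 of 7 pairs listed in both 42MGBA lines were weaker in 42MGBA 53-1. Over chromosome 21, 75.7% of pairs of 800 kb and more were stronger in 42MGBA.

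**Figure D2:**
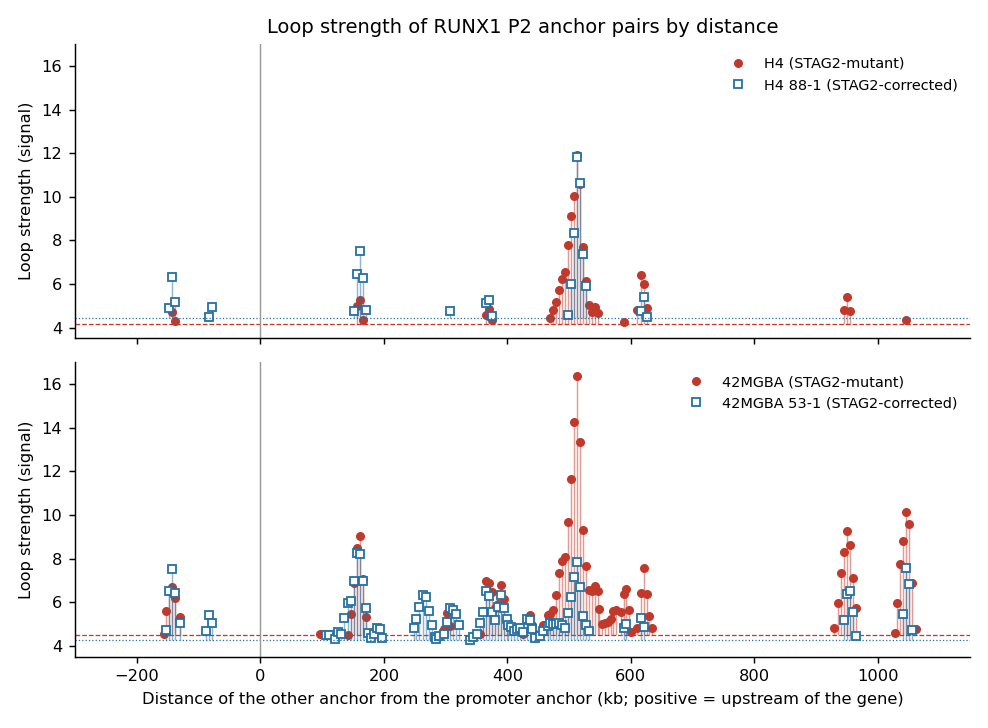
Loop strength (signal, y axis) of RUNX1 P2 pairs by the distance of the other anchor (kb, x axis, positive upstream), for H4 with H4 88-1 (top) and 42MGBA with 42MGBA 53-1 (bottom). Each symbol is the highest listed strength of an anchor in a line, and the dashed and dotted lines mark the lowest listed strength of the mutant and corrected line. The contact 511 kb upstream reached 16.4 in 42MGBA and 7.84 in 42MGBA 53-1.

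Counted over all its pairs, RUNX1 P2 had about the same balance of directions as chromosome 21 in each pair of lines. Where only 1 line listed a pair, the other line was set to the weakest value in its own list, so that the fold is a lower bound, and the direction was left undetermined where the other value did not exceed that limit. Of 198 RUNX1 P2 pairs listed in either 42MGBA line, 126 were stronger in 42MGBA, 58 were stronger in 42MGBA 53-1 and 14 were undetermined. Over all pairs of chromosome 21, 63.1% were stronger in 42MGBA, and over the genome 57.5%. Of 66 in the H4 pair, 33 were stronger in H4, 28 were stronger in H4 88-1 and 5 were undetermined, against 53.0% stronger in H4 over chromosome 21. The median log2 ratio of corrected over mutant was -0.10 in the 42MGBA pair and 0.00 in the H4 pair, against -0.08 and 0.09 over all pairs of the genome and -0.11 and -0.02 over chromosome 21. Less the chromosome median, the value of RUNX1 P2 in the 42MGBA pair was 0.0098. Because the lowest listed strengths differ between lists, 2 absent values alone would give a log2 ratio of -0.07 in the 42MGBA pair and 0.10 in the H4 pair.

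The direction at RUNX1 P2 went with loop size in both systems. In the H4 pair 16 of 16 pairs under 200 kb were stronger in H4 88-1, against 61.5% of such pairs on chromosome 21, with a median log2 ratio of 0.27. Of 36 pairs of 400 to 800 kb, 29 were stronger in H4, against 70.6%, with a median of -0.11. In the 42MGBA pair 24 of 40 pairs under 200 kb were stronger in 42MGBA 53-1, against 40.7%, with a median of 0.03. Of pairs of 400 to 800 kb 68 of 76, and of longer pairs 29 of 29, were stronger in 42MGBA, against 76.4% and 75.7%, with medians of -0.33 and -0.48. Short pairs thus leaned toward the corrected lines and long pairs toward the mutant lines. All pairs of chromosome 21 also shifted with size, with medians of 0.12 and -0.04 under 200 kb and of -0.11 and -0.18 at 400 to 800 kb in the H4 and 42MGBA pairs. At 800 kb and more the chromosome 21 median was -0.17 in the 42MGBA pair. Adjoining anchors cover the same contact, so that these are not counts of independent loops.

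RUNX1 P1 pairs were mostly stronger in H4 88-1 in the H4 pair and near the background of chromosome 21 in the 42MGBA pair. In the H4 pair 18 of 20 P1 pairs were stronger in H4 88-1, none was stronger in H4, and the median log2 ratio was 0.26. Over chromosome 21, 35.7% of all pairs and 61.5% of those under 200 kb were stronger in H4 88-1. In the 42MGBA pair 21 of 32 were stronger in 42MGBA and 10 in 42MGBA 53-1, with a median of -0.08, against 63.1% and a median of -0.11 over chromosome 21. Besides the loop to P2, RUNX1 P1 contacted the same anchor 352 kb upstream that P2 contacted at 511 kb. That P1 contact was listed at 4.75 in H4 and 5.81 in H4 88-1, and 7.11 in 42MGBA against 4.59 in 42MGBA 53-1, so that it was 1.22-fold higher in H4 88-1 than in H4 and 1.55-fold higher in 42MGBA than in 42MGBA 53-1. Of the 9 P1 pairs listed in all 4 lines, 8 were higher in H4 88-1 than in H4 and lower in 42MGBA 53-1 than in 42MGBA. The 9 had a median of 0.35 for H4 88-1 over H4 and of -0.09 for 42MGBA 53-1 over 42MGBA. All pairs of the genome had the same signs, at 0.09 and -0.08, and chromosome 21 had -0.02 and -0.11. Between the 42MGBA lines the 9 pairs thus lay near the background. The share of all pairs with such opposite signs was not counted, and an opposite response of the 2 systems was not tested.

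**Figure D3:**
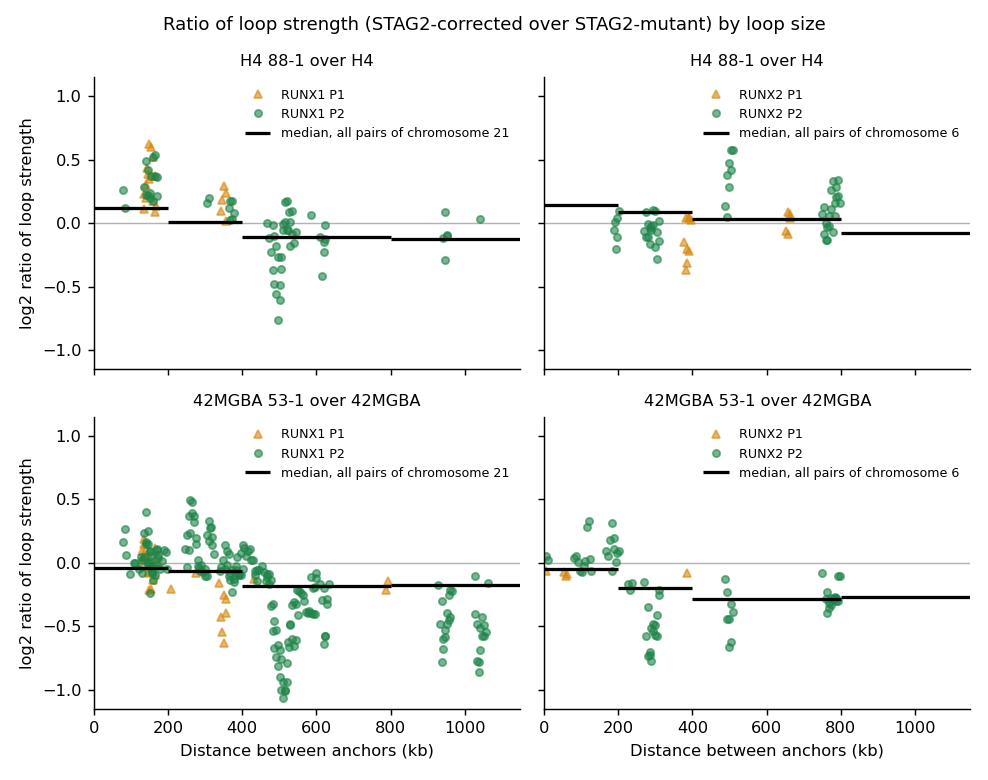
log2 ratio of loop strength, corrected over mutant line (y axis), by the distance between anchors (kb, x axis) for RUNX1 (left) and RUNX2 (right) in the H4 pair (top) and the 42MGBA pair (bottom). Each point is an anchor pair, a pair absent from 1 list is drawn at its limit, and black lines are medians over all pairs of the chromosome in a size class. RUNX1 P2 pairs of 400 to 800 kb lay at a median of -0.33 in the 42MGBA pair, below the chromosome 21 median of -0.18.

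The other annotated RUNX1 start sites were anchors of few loops. The start site at 36437369, near P1, had 2 pairs in H4 and 4 in H4 88-1, and 6 in 42MGBA against 5 in 42MGBA 53-1. Those at 36228744 and 36231875 shared the same pairs, 3 in H4 and 7 in 42MGBA, with none in either corrected line. The 3 in H4 reached at most 4.33, below the lowest strength listed in H4 88-1, 4.44, so that their direction was undetermined. The 7 in 42MGBA reached at most 5.74, and the lowest strength listed in 42MGBA 53-1 was 4.28. Over chromosome 21, 63.1% of pairs were stronger in 42MGBA. That at 36837627 had 4 pairs in 42MGBA alone, that at 37376965 had 1 pair in 42MGBA 53-1, and those at 36202267, 36953058 and 37357047 had none.

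RUNX2 P2 had 3 main contacts. The strongest joined chr6:45390331-45395054 to the intergenic anchor chr6:45679823-45684773, 290 kb downstream and beyond the end of RUNX2, and was listed at 9.30 in H4 and 9.18 in H4 88-1, and 10.0 in 42MGBA against 7.02 in 42MGBA 53-1. The H4 lines differed by 1.01-fold, and 42MGBA exceeded 42MGBA 53-1 by 1.43-fold. Of the 9 pairs within 25 kb listed in both 42MGBA lines, 9 were weaker in 42MGBA 53-1. Over chromosome 6, 82.2% of pairs of 200 to 400 kb were stronger in 42MGBA. The contact 503 kb downstream, in an intron of the chloride channel gene CLIC5, was listed at 5.50 in H4 and 7.33 in H4 88-1, and 7.51 in 42MGBA against 4.88 in 42MGBA 53-1. It was 1.33-fold higher in H4 88-1 than in H4 and 1.54-fold lower in 42MGBA 53-1 than in 42MGBA.

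The third RUNX2 P2 contact lay 764 kb upstream, at the intergenic anchor chr6:44621701-44626239. H4 listed it at 7.86, H4 88-1 at 7.18 and 42MGBA at 5.62, and it was absent from 42MGBA 53-1, where the lowest listed strength was 4.28. Within 25 kb of it H4 listed 17 pairs, H4 88-1 18 and 42MGBA 15, whereas 42MGBA 53-1 listed none. The 15 pairs adjoin each other and reached at most 5.62 in 42MGBA. Over chromosome 6, 94.2% of pairs of 400 to 800 kb were stronger in 42MGBA. Over the genome 395862 pairs were listed in either 42MGBA line, of which each line listed 300000. Shorter contacts inside RUNX2 were listed higher in 42MGBA 53-1. The contact 120 kb downstream was listed at 5.64 in 42MGBA 53-1 and in no other line, and that 183 kb downstream was listed at 4.86 in 42MGBA and 6.05 in 42MGBA 53-1. H4 did not list that pair but listed 6 pairs within 25 kb of it, up to 5.11, and H4 88-1 listed none.

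By size, 17 of 22 RUNX2 P2 pairs under 200 kb were stronger in 42MGBA 53-1, against 38.5% of such pairs on chromosome 6. Of pairs of 200 to 400 kb 19 of 20, and of 400 to 800 kb 25 of 25, were stronger in 42MGBA, against 82.2% and 94.2%. The medians of the log2 ratio were 0.05, -0.49 and -0.29, against -0.05, -0.20 and -0.28 over chromosome 6, so that the longest class lay close to its chromosome. In the H4 pair the order was not the same: 13 of 18 RUNX2 P2 pairs of 200 to 400 kb were stronger in H4, against 34.0%, and 22 of 28 of 400 to 800 kb were stronger in H4 88-1, against 46.4%. Over all sizes the median log2 ratio of RUNX2 P2 was -0.23 in the 42MGBA pair and 0.04 in the H4 pair. Chromosome 6 as a whole had medians of -0.18 and 0.07, and less these the values of RUNX2 P2 were -0.050 and -0.034.

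**Figure D4:**
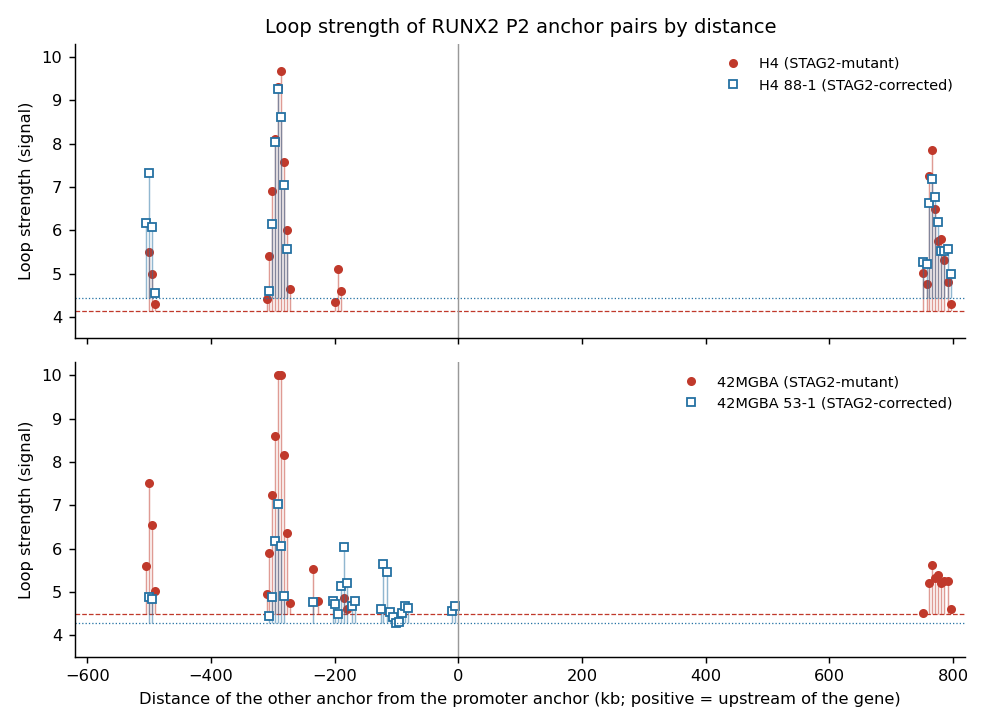
Loop strength (signal, y axis) of RUNX2 P2 pairs by the distance of the other anchor (kb, x axis, positive upstream), for the H4 pair (top) and the 42MGBA pair (bottom), with symbols and lines as for RUNX1 P2. The contact 764 kb upstream was listed in H4, H4 88-1 and 42MGBA but not in 42MGBA 53-1.

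RUNX2 P1 contacted the same downstream anchor as P2, 382 kb away. The strongest of these pairs, from chr6:45298254-45303190, had a strength of 5.73 in H4 and was absent from the other 3 lines, so that H4 exceeded H4 88-1 by at least 1.29-fold. The pair from the adjoining anchor chr6:45293247-45298253 was listed at 5.18 in H4, 4.51 in H4 88-1 and 4.53 in 42MGBA and was absent from 42MGBA 53-1. In H4 a further contact lay 658 kb upstream at 4.72. Of the 14 RUNX2 P1 pairs of the H4 pair, 7 were stronger in H4, none was stronger in H4 88-1 and 7 were undetermined. Of these 14, 13 were absent from H4 88-1, and such a pair can only count as stronger in H4 or undetermined. The count therefore gives no balance of directions. Over chromosome 6, 37.3% of pairs were stronger in H4 and 53.0% in H4 88-1. The start site at 45329310 had 1 pair in each H4 line and none in the 42MGBA lines.

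RUNX3 P2 had its contact 101 kb upstream, at chr1:25360395-25365398, near the long non-coding RNA gene LINC02793, and only H4 88-1 listed it, at 5.34. The lowest strength listed in H4 was 4.14, so that H4 88-1 exceeded H4 by at least 1.29-fold. Loops that span the whole RUNX3 gene were listed in each line nonetheless, 62 in H4 and 72 in H4 88-1, and 234 in 42MGBA against 230 in 42MGBA 53-1, the strongest at 14.7 in 42MGBA and 13.8 in 42MGBA 53-1. The gene with almost no listed promoter contact thus lay under strong loops. Loops that span RUNX1 from the end of the gene to P1 numbered 348 in H4 and 113 in H4 88-1, and 420 in 42MGBA against 266 in 42MGBA 53-1. Loops that span RUNX2 numbered 267, 130, 41 and 0 in the same order. For RUNX1 and RUNX2 each corrected line listed fewer spanning loops than its mutant parent. Such loops are long, since the spanned stretches measure 262 kb at RUNX1 and 336 kb at RUNX2. Of all chromosome 21 pairs of 400 to 800 kb, 70.6% were stronger in H4 and 76.4% in 42MGBA. On chromosome 6 these shares were 43.2% and 94.2%. Spanning loops were not counted for other genes, so the difference is not shown to be particular to RUNX1 or RUNX2.

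To rank loops within the lists, the 100000 strongest pairs of both lines were merged, the corrected strength was fitted to the mutant strength by a line through 0, and a loop counted as specific to a line where the z-score of its residual passed the two-sided 0.05 cutoff of 1.96. In the 42MGBA pair 9 of 71 merged RUNX1 P2 loops were specific to 42MGBA, against 2.45% of all merged loops and 2.36% of those on chromosome 21. All 9 lay 496 to 520 kb upstream, around the 1 summit, with z-scores from -2.00 to -4.45. RUNX2 P2 had 1 of 15 specific to 42MGBA, the pair 285 kb downstream, at a z-score of -1.97, against 6.29% of the merged loops on chromosome 6. No RUNX loop was specific to 42MGBA 53-1, against 1.61% of all merged loops, 0.247% of those on chromosome 21 and 0.192% on chromosome 6. Shares this low do not set the absence apart from the 2 chromosomes. RUNX1 P1 had none of 13 in either direction.

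In the H4 pair 2 of 23 merged RUNX1 P2 loops were specific to H4, against 2.17% of all merged loops and 5.45% of those on chromosome 21, a count too small to set apart from that share. They were the 2 pairs on the flank of the summit, 496 and 501 kb upstream, with z-scores of -2.14 and -2.13. They were the only RUNX loops specific to the mutant line in both systems. The 2 share a promoter anchor and adjoin each other, so that they cover the same contact. With an intercept in the fit, 1 RUNX loop was specific to H4. The share of all merged loops specific to the mutant line in both systems was not counted. No RUNX loop was specific to H4 88-1, against 1.94% of all merged loops, 0.266% of those on chromosome 21 and 0.563% on chromosome 6. This absence too is not set apart from those chromosomes. None of 5 RUNX1 P1 and of 19 RUNX2 P2 merged loops passed the cutoff, and RUNX3 had no merged loop in either pair.

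**Figure D5:**
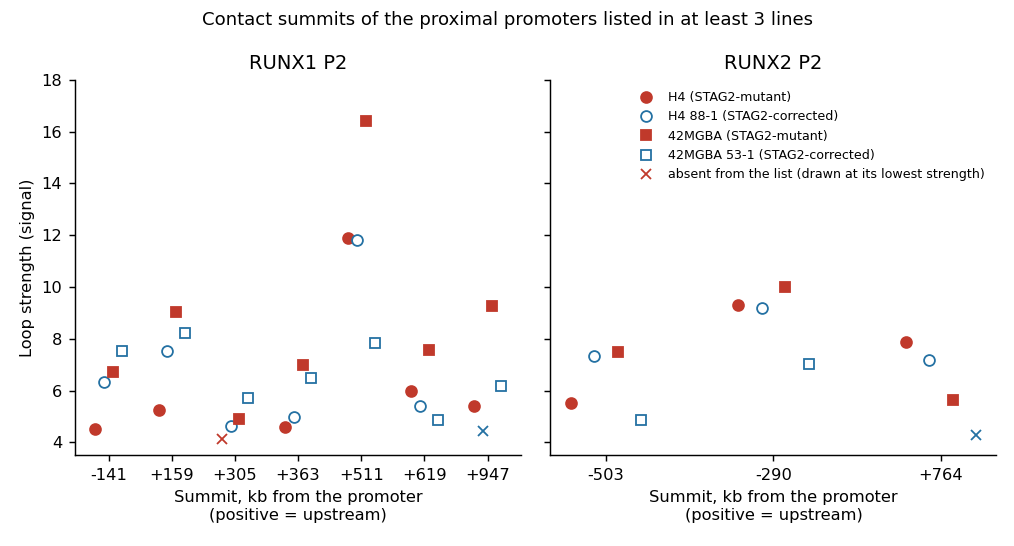
Loop strength (signal, y axis) at the contact summits of RUNX1 P2 and RUNX2 P2 that were listed in at least 3 lines (x axis, kb from the promoter), 1 symbol per cell line and a cross where a pair was absent from a list. The summit 511 kb upstream of RUNX1 P2 had the widest gap between 42MGBA and 42MGBA 53-1, 16.4 against 7.84.

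A 1.5-fold difference over all listed pairs uses the same loop strengths as the z-score and is no separate support. It gave the same side in the 42MGBA pair. There 34 of 313 RUNX pairs were at least 1.5-fold stronger in 42MGBA, against 3.40% of all pairs, and 0 were so in 42MGBA 53-1, against 0.485%. Of the 34, RUNX1 P2 held 27, at 487 to 1043 kb, RUNX1 P1 held 1 and RUNX2 P2 held 6. Many of them adjoin each other and cover the same contacts, so that they are not independent loops. The share past this fold was not counted by chromosome or loop size. Of chromosome 21 pairs of 400 to 800 kb 76.4% were stronger in 42MGBA by any amount, and of chromosome 6 pairs of 200 to 400 kb 82.2%. In the H4 pair 2 of 163 RUNX pairs were at least 1.5-fold stronger in H4, against 0.722%, and 2 in H4 88-1, against 2.92%. The 2 pairs stronger in H4 88-1 both joined RUNX1 P1 to anchors just upstream of P2. The widest difference in that direction was at least 1.54-fold, in a pair listed at 6.37 in H4 88-1 and absent from H4.

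No protein-coding start site other than those of RUNX1 lay at the far end of a RUNX loop. The far anchors of RUNX1 pairs held start sites of the long non-coding RNA genes LINC01426 and LINC00160, the pseudogene RPL34P3 and 1 unnamed gene. No listed pair joined a RUNX start site to that of a neighbouring gene, which were, for RUNX1, CLIC6, RCAN1 and SETD4, for RUNX2, CLIC5, SUPT3H and CDC5L, and for RUNX3, CLIC4, SYF2 and SRRM1. Here only anchors within 3 kb of a start site were counted, and introns of CLIC5, SUPT3H and CLIC6 did lie at the far end of some RUNX pairs. SETD4 and CDC5L had no listed pair at their start sites in any line, whereas RCAN1, an inhibitor of calcineurin, had 67 pairs in H4 and 70 in H4 88-1, and 75 in 42MGBA against 87 in 42MGBA 53-1.

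Of 20 partners and cofactors of RUNX proteins, 5 had merged loops between H4 and H4 88-1, and 9 between 42MGBA and 42MGBA 53-1. WWTR1, a transcriptional coactivator of the Hippo pathway, had 3 loops specific to H4. TLE3, a corepressor, and SMAD3, a mediator of TGF-beta signals, each had 1 loop specific to H4 88-1. RUNX1T1, a corepressor known as a fusion partner of RUNX1 in leukemia, had 3 loops specific to 42MGBA. Of all genes with merged loops, 5.86% had a loop specific to H4, 9.55% to H4 88-1, 7.14% to 42MGBA and 6.37% to 42MGBA 53-1. RUNX1T1 had 12 pairs in H4 and 14 in H4 88-1, and 32 in 42MGBA against 0 in 42MGBA 53-1. TLE3 had 17, 51, 17 and 0 pairs and SMAD3 had 32, 52, 94 and 167. CBFB, the shared partner of RUNX proteins, had 3, 5, 16 and 6 pairs and no specific loop.

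Of 18 known RUNX targets, 10 had merged loops in each pair of lines. COL1A2, a type I collagen chain, and VEGFA, an angiogenic growth factor, had loops specific to the mutant line in both systems. COL1A1, the other type I collagen chain, and TGFBR1, a TGF-beta receptor, had loops specific to the corrected line in both systems. COL1A2 had 7 of 52 merged loops specific to H4 and 19 of 122 to 42MGBA, and VEGFA 3 of 48 and 2 of 36. COL1A1 had 5 of 47 specific to H4 88-1 and 3 of 43 to 42MGBA 53-1, and TGFBR1 4 of 26 and 2 of 24. Over all merged loops 2.17% were specific to H4, 2.45% to 42MGBA, 1.94% to H4 88-1 and 1.61% to 42MGBA 53-1. On chromosome 6, which holds VEGFA, 2.13% were specific to H4 and 6.29% to 42MGBA. The share of genes with such loops in both systems was not counted. CD44, an adhesion receptor, had 4 loops specific to H4 88-1 and none specific to either 42MGBA line. CD44 had 62 pairs in H4 and 71 in H4 88-1, but 197 in 42MGBA against 69 in 42MGBA 53-1. Its median log2 ratio was 0.12 between the H4 lines and -0.23 between the 42MGBA lines, where CD44 leaned toward the mutant line. TGFBR1 had 30 pairs in H4 and 69 in H4 88-1, and 33 in 42MGBA against 69 in 42MGBA 53-1, with a median log2 ratio of 0.35 and 0.16. CSF1R, the receptor of a macrophage growth factor, had 6, 9, 10 and 9 pairs and no specific loop. The median of the gene medians was 0.14 and -0.04 for targets and 0.13 and -0.08 for partners in the respective pairs (H4 first), against 0.11 and -0.08 over all genes.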

How the data were processed

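Hi-C was analysed in 4 GBM cell lines, and 12 RNA-seq samples of the series were not analysed here. The authors aligned Arima Hi-C reads to hg19 with Bowtie, corrected bias with HiCorr, enhanced loops with DeepLoop, pooled 2 replicates per line and deposited the 300000 strongest 5-kb anchor pairs with a loop strength (unit signal). No counts can be recovered, so the depth is unknown and no interval is given. All Hi-C lists were grouped by the labels, and each corrected line was compared with its mutant parent.

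Start sites came from GENCODE 44 on GRCh37, the same assembly as hg19, and sites within 3 kb of each other were joined. An absent pair took the lowest strength of its list. Loops were ranked by a z-score over the merged 100000 strongest pairs of both lines (two-sided 0.05, cutoff 1.96) and by a 1.5-fold difference over all pairs. The fit through 0 was chosen here, since the sources used here give a regression and a z-score cutoff without its form. Both are ranks within these lists and not tests against replicates. Scripts used Python 3.11.15, NumPy 2.4.6, pandas 2.3.3 and SciPy 1.17.1 and were tested on simulated data. Named were the strongest pair of each promoter, the pairs with the widest ratios, pairs joining P1 and P2, pairs past the cutoff in both systems, the neighbours, 3 genes per RUNX gene with the most similar counts, and the 5 partners and targets with the largest median ratio among those with at least 5 pairs in both pairs of lines. CBFB, WWTR1, COL1A1, COL1A2, VEGFA and CD44 were named after their values were seen. The members and lists were chosen with earlier results of these data known. Summits, direction counts, size classes and motifs were chosen after the data were seen. Sequences are from the GRCh37 genome.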

Additional observations from a re-analysis of the deposited data

How the results depend on the processing

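No paired analysis was possible because the replicates of each line were pooled in its list, and leaving out a replicate was not possible for the same reason. Of the values recomputed under each alternative, 96 stayed within 0.1 (log2) or, for counts, 1.5 times of the reported value and 44 moved further. Medians near 0 changed sign: in the H4 pair, RUNX1 P2 lay between -0.091 and -0.020 within 10 kb, over merged loops, less the genome median and less the median of loops of similar size, and RUNX2 P2 between -0.058 and -0.013 under these and less the chromosome median. In the 42MGBA pair RUNX1 P2 was 0.0040 less the median of loops of similar size. RUNX1 P1, RUNX1 P2 and RUNX2 P1 in that pair also turned positive less the chromosome median, as did RUNX1 P2 with neighbouring pairs joined. The cause of each move was not tested, except that a wider window, a longer list or a lower fold takes in more pairs by construction.

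Listings over the 4 lines within 1 kb of a start site were 51 at RUNX1 P1, 7 at RUNX2 P1 and 4 at RUNX3 P2. Within 10 kb they were 142 at RUNX1 P1, 742 at RUNX1 P2, 338 at RUNX2 P2 and 13 at RUNX3 P2. Among the 100000 strongest of each line they were 26 at RUNX1 P1, 129 at RUNX1 P2, 0 at RUNX2 P1, 51 at RUNX2 P2 and 0 at RUNX3 P2. The median log2 ratio over merged loops was 0.52 at RUNX1 P1 in the H4 pair, and -0.53 at RUNX1 P2 and -0.57 at RUNX2 P2 in the 42MGBA pair. Less the median of loops of similar size it was 0.14 at RUNX1 P1 and 0.068 at RUNX3 P2 in the H4 pair and -0.11 at RUNX2 P2 in the 42MGBA pair. Less the chromosome median it was, in the 42MGBA pair, 0.025 at RUNX1 P1, 0.0098 at RUNX1 P2, 0.098 at RUNX2 P1 and -0.050 at RUNX2 P2. With neighbouring pairs joined it was 0.023 at RUNX1 P2 in the 42MGBA pair. Over pairs listed in both lines it was -0.20 at RUNX2 P1 in the H4 pair and -0.50 at RUNX2 P2 in the 42MGBA pair.

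RUNX loops past the z-score cutoff and stronger in H4 numbered 1 with an intercept, 4 over the 300000 strongest, 4 within 10 kb and 1 with neighbours joined. Those stronger in 42MGBA numbered 20 with 200000 merged, 34 over the 300000 strongest, 18 within 10 kb and 2 with neighbours joined, and over the 300000 strongest 1 was stronger in 42MGBA 53-1. Pairs past the fold in H4 numbered 4 at a common median, 9 at a smaller fold and 0 at 2-fold. In H4 88-1 they numbered 0 at a common median, 1 among pairs listed in both lines, 21 at a smaller fold and 0 at 2-fold. In 42MGBA they numbered 88 at a smaller fold and 4 at 2-fold, and in 42MGBA 53-1 they numbered 9 at a smaller fold.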
